A study of Mus musculus with 12 samples.

Results

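The mitochondrial genome transcripts are the RNAs encoded by mitochondrial DNA: 2 ribosomal RNAs (mt-rRNA), 13 messenger RNAs (mt-mRNA) and 22 transfer RNAs (mt-tRNA). They were taken as all genes whose symbol starts with mt-, which gave 37 of the 55487 genes listed for each library. The rule uses the symbols alone and no measured value. The 12 libraries came from mammary tissue of female C57BL/6 mice, an inbred laboratory strain, at postnatal day 84, which was 4 weeks after folic acid supplementation. Mice given folic acid at 5 mg/kg supplied 6 of these libraries, and mice on 1 mg/kg the other 6. Both groups received folic acid, and no group without it was analysed here. The RNA was that of a whole thoracic fat pad from the right side, so fat, epithelium, vessels, immune cells and any adhering muscle contributed to each library. In such bulk samples, fewer cells of a type and less RNA per cell cannot be told apart. The labels do not tie libraries to separate animals, and a p-value here measures the spread between these samples, which may be technical.

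The mitochondrial genome is transcribed from both strands as long precursor RNAs. These are cut mainly at the tRNAs, which lie between most of the rRNAs and mRNAs. The rRNAs form the core of the mitochondrial ribosome, the tRNAs deliver its amino acids, and every mRNA encodes a subunit of respiratory complex I, complex III, complex IV or ATP synthase. All other proteins of these complexes, and all proteins that copy, cut, modify and translate mitochondrial RNA, are encoded in the nucleus. Mammalian mitochondrial rRNAs and most of the mRNAs carry adenine tails, whereas in human cells the mt-Nd6 mRNA is known to lack one. The kit used for the libraries picks out RNA with such tails and keeps no record of strand. Muscle and brown fat are known as tissues rich in mitochondria.

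Each library held 48.2 to 75.3 M reads assigned to genes. Reads that fell outside annotated genes took 5.58% to 14.1% of the tallied reads in 9 libraries. They took 20.8% in replicate 6 at 5 mg/kg, and 18.7% and 26.6% in replicates 1 and 6 at 1 mg/kg, so these 3 libraries stood apart. All 10 luminal epithelial markers, all 8 basal epithelial markers and all 11 adipocyte markers of the lists passed the filter on low counts, and none was at 0 throughout.

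The mouse mitochondrial genome is packed almost without gaps, and several genes share bases. On its annotated plus strand lie both rRNAs, 12 mRNAs and 14 tRNAs. The minus strand carries mt-Nd6 and 8 tRNAs. Because the kit does not mark strand, reads of mt-Nd6 and of these 8 tRNAs cannot be told apart from RNA of the opposite strand. mt-Nd6 also differed in composition, with 28.1% G and 5.97% C in its sense strand, against 5.88% to 16.1% G and 22.1% to 30.0% C in the other 12 mRNAs. Of the 13 mRNAs, 10 end in a full stop codon and 3 end in the single T of an unfinished one, which the adenine tail is known to complete. The ends of these 3 genes are shown first, with the unfinished stop codon in capitals, followed by the ends of mt-Atp8 and mt-Nd4l, with capitals for the 43 and 7 bases that they share with the start of mt-Atp6 and mt-Nd4. All are plus-strand sequences of GRCm38 (mm10), at chrM:9361-9390, chrM:11515-11544, chrM:15259-15288, chrM:7907-7969 and chrM:10147-10173.
mt-Co3: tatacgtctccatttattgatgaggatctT
mt-Nd4: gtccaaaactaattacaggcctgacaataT
mt-Cytb: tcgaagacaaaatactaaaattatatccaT
mt-Atp8: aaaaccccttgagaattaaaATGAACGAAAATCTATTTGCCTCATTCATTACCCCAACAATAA
mt-Nd4l: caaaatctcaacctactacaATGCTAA

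The nuclear genome holds copies of mitochondrial DNA, and reads that align equally well to both places are not given to either gene. Among all other annotated transcripts, copies of at least 95% identity over at least 200 bases were found for 9 of the 13 mRNAs and for none of the rRNAs or tRNAs. On chromosome 1, 7 annotated pseudogenes lie on the minus strand between 24611535 and 24616197. They match the mitochondrial genes mt-Co1 (its last 483 bases), mt-Co2, mt-Atp6, mt-Co3, mt-Nd3, mt-Nd4l and mt-Nd4 (its first 876 bases), in the same order. Identity was 99.7% to 100%, and the distances between successive starts were the same in both genomes except for 1 base between mt-Nd3 and mt-Nd4l. The stretch spans 4653 bases of the mitochondrial genome, chrM:6390-11042, and 4654 bases of chromosome 1. Only annotated transcripts were searched, so bases between them were not compared, and other copies were not looked for. The first 60 bases of mt-Co2 (chrM:7013-7072) and of its copy Gm28661 (chr1:24615506-24615565) were the same, and the full 681 aligned bases held 0 differences. The first 60 bases of mt-Nd3 (chrM:9459-9518) and of Gm28438 (chr1:24613060-24613119) held the single difference of that pair, T3C, counted from the first base of the gene and written with the mitochondrial base first. Another copy, Gm13340 on the minus strand of chromosome 2, matched mt-Co1 over all its 1545 bases at 97.6% identity with 37 differences. Bases 460 to 519 of that pair (chrM:5787-5846 and chr2:22589129-22589188) held A462G, A468G, T501C and C519T. The 3 pairs are shown as examples of copies of genes with few and with many reads, with capitals for bases that differ.
mt-Co2: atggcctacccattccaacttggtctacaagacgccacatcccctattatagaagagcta
Gm28661: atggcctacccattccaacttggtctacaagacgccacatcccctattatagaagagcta
mt-Nd3: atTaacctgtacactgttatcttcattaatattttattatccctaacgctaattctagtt
Gm28438: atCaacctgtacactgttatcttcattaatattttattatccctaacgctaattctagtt
mt-Co1: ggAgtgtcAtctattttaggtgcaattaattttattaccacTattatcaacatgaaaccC
Gm13340: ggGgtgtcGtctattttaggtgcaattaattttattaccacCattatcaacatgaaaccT

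On average, mitochondrial RNA took about as many gene-assigned reads as all nuclear genes together, but single libraries ran from 72.2% to 184% of the nuclear reads. Of all tallied reads, which include those not assigned to genes, it took 29.5% to 54.0%. All 37 genes took 44.7% to 64.8% of the gene-assigned reads at 5 mg/kg (median 52.5%) and 41.9% to 57.8% at 1 mg/kg (median 49.7%). The highest library of the study was replicate 5 at 5 mg/kg and the lowest was replicate 1 at 1 mg/kg. By class, the 2 rRNAs averaged 49.3% ± 7.01 at 5 mg/kg, against 46.1% ± 4.86 at 1 mg/kg (SD, n = 6 each). The 13 mRNAs averaged 4.20% ± 0.965 at 5 mg/kg, against 3.71% ± 0.959 at 1 mg/kg. Nearly all of these mRNA reads came from 7 of the 13 genes, as described below. The 22 tRNAs averaged 0.00174% ± 0.000445 at 5 mg/kg, against 0.00151% ± 0.000423 at 1 mg/kg. The groups overlapped in all 3 classes, and each difference of means was smaller than the SD of either group. Counting error was smaller than this spread, least so for the tRNAs: the widest 95% Wilson interval of a library's share was ± 0.0140 percentage points for the rRNAs, ± 0.00556 for the mRNAs and ± 0.000119 for the tRNAs. Such intervals cover counting error only, because reads without molecular identifiers are not independent molecules.

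**Figure D1:**
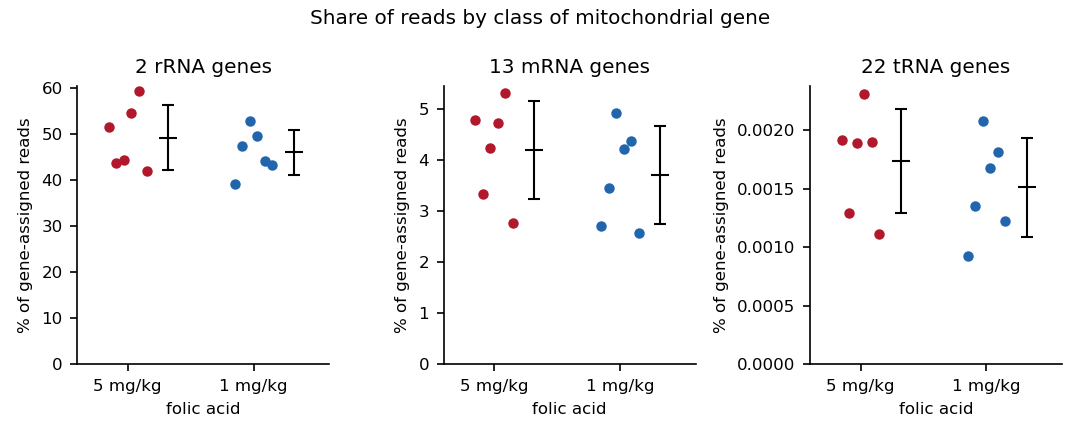
Share of the gene-assigned reads (%, vertical axis, from 0) taken by the rRNA, mRNA and tRNA genes of the mitochondrial genome, with 1 point per library, 5 mg/kg left of 1 mg/kg, and bars for mean ± SD (n = 6 each). The groups overlap in each panel, and the rRNA panel runs to 59.5% while the tRNA panel runs to 0.00231%.

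The 2 rRNAs were the genes with the most reads of all. mt-Rnr2, the RNA of the large subunit of the mitochondrial ribosome (chrM:1094-2675, plus strand), took 35.6%, 41.4% and 51.4% of the gene-assigned reads at 5 mg/kg (lowest, median, highest) and 33.6%, 39.4% and 46.3% at 1 mg/kg. mt-Rnr1, the RNA of the small subunit (chrM:70-1024, plus strand), took 6.28%, 6.55% and 8.08% at 5 mg/kg, against 5.67%, 6.65% and 7.56% at 1 mg/kg. The groups overlapped for both genes. The ribosome holds 1 molecule of each, but the reads were not even: per kilobase, mt-Rnr2 stood 3.72 ± 0.220 times as high as mt-Rnr1 at 5 mg/kg, against 3.62 ± 0.400 times at 1 mg/kg (SD, n = 6 each). This ratio lay between 3.11 and 4.28 in all 12 libraries. The kit picks out RNA with adenine tails, so the ratio need not reflect numbers of molecules. Relative to mt-Co1, the mRNA with the most reads, mt-Rnr2 was 19.98 ± 2.70 times as high per kilobase at 5 mg/kg, against 21.3 ± 4.18 times at 1 mg/kg. The length of mt-Co1 here was its whole 1545 bases, including those copied on chromosome 1. By the 1062 bases outside copies of at least 99% identity, mt-Co1 averaged 1.15e+06 reads per kilobase, against 7.93e+05 by the whole gene. A ratio by that shorter length would be lower. The highest value of the ratio by whole genes, 25.1 at 5 mg/kg, against 28.3 at 1 mg/kg, was in replicate 6 of each group. Both are among the 3 libraries with the most reads outside genes.

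The mRNAs fell into a set of 7 with many reads and a set of 6 with almost none, with nothing between. Lowest and highest values over the 12 libraries were 9538 and 1.26e+06 reads per kilobase in the first set and 0 and 132 in the second. The second set was mt-Co2, mt-Atp8, mt-Atp6, mt-Co3, mt-Nd3 and mt-Nd4l, and all 6 lie wholly inside the stretch copied on chromosome 1. No other mRNA does. mt-Co1 and mt-Nd4 lie partly inside it, and mt-Nd1, mt-Nd2, mt-Nd5, mt-Nd6 and mt-Cytb lie outside. mt-Atp8 has no annotated copy of its own but lies between those of mt-Co2 and mt-Atp6.

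**Figure D2:**
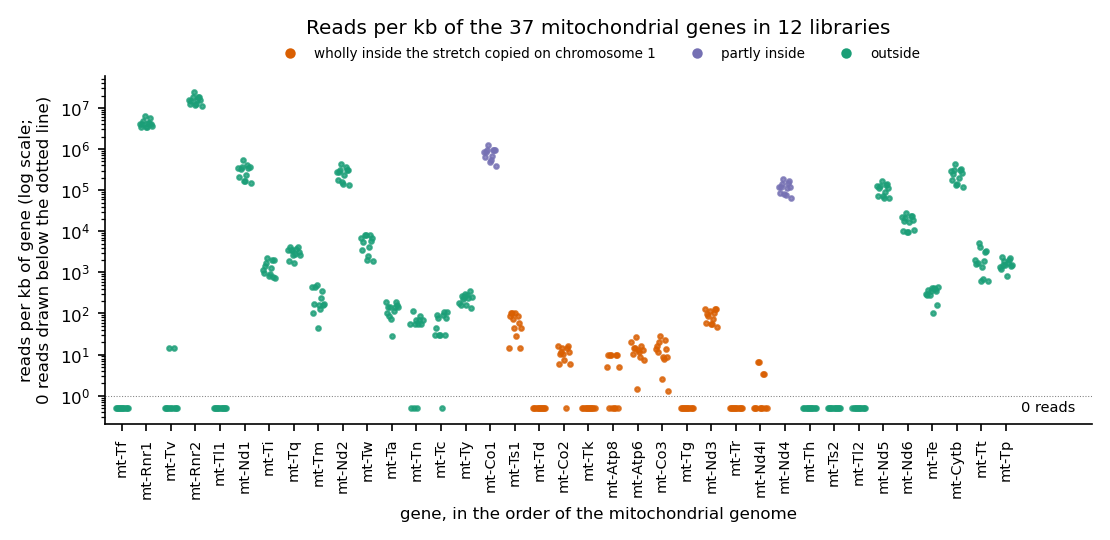
Reads per kilobase of gene (log axis) for the 37 mitochondrial genes in genome order, with 1 point per library (12 per gene, both doses) and libraries with 0 reads drawn below the dotted line. Orange genes lie wholly inside the stretch copied on chromosome 1, violet genes partly and green genes outside; the 6 orange mRNAs stay at or below 132 while every other mRNA is at 9538 or above.

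The read counts of the 6 low mRNAs were small in every library. mt-Co2, subunit 2 of complex IV (cytochrome c oxidase), had 11, 4, 7, 8, 10 and 7 reads in replicates 1 to 6 at 5 mg/kg, against 5, 0, 10, 11, 8 and 4 reads at 1 mg/kg. mt-Co3, subunit 3 of the same complex, had 11, 13, 9, 16, 22 and 2 reads at 5 mg/kg, against 7, 6, 18, 11, 7 and 1 reads at 1 mg/kg. Neither dose stood apart for these core subunits of the enzyme that reduces oxygen. mt-Atp6, which forms part of the proton path of ATP synthase, had 14, 7, 10, 10, 18 and 1 reads at 5 mg/kg, against 9, 8, 6, 11, 9 and 5 reads at 1 mg/kg. mt-Atp8, its neighbour in that enzyme, had 0 to 2 reads at 5 mg/kg, against 0 to 2 reads at 1 mg/kg. mt-Nd4l, a small membrane subunit of complex I, had 0 to 2 reads at 5 mg/kg, against 0 or 1 at 1 mg/kg. mt-Nd3, another complex I subunit and the only one of the 6 to pass the filter on low counts, had 44, 21, 34, 31, 41 and 19 reads at 5 mg/kg, against 19, 25, 35, 46, 46 and 16 reads at 1 mg/kg. In all, these 6 genes held 711 reads over the 12 libraries. The 7 chromosome 1 copies together had 150 to 561 reads per library. Of all copies found, 5 averaged at least 1 CPM. Gm13340, the copy of mt-Co1 on chromosome 2, had 149 to 365 reads at 5 mg/kg, against 135 to 300 at 1 mg/kg, and Gm13341, a copy of mt-Co2 beside it, had 39 to 98 at 5 mg/kg, against 22 to 97 at 1 mg/kg. On chromosome 1, Gm10925 (a copy of mt-Atp6) had 41 to 180 reads at 5 mg/kg, against 36 to 121 at 1 mg/kg. Gm29216 (mt-Co1) had 31 to 116 at 5 mg/kg, against 44 to 112 at 1 mg/kg, and Gm28437 (mt-Co3) had 40 to 102 at 5 mg/kg, against 47 to 73 at 1 mg/kg. The groups overlapped for all 5. Reads aligned to more than 1 place, which no gene receives, made up 8.30% to 10.5% of the tallied reads, or 6.22 to 9.47 M per library. The deposited counts do not say where those reads lie, so the counts of these 6 mRNAs, mt-Nd3 included, cannot be taken as their levels.

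Among the 7 well-counted mRNAs, mt-Co1 led in every library. mt-Co1, the catalytic subunit of complex IV (chrM:5328-6872, plus strand), took 1.39%, 2.26% and 2.59% of gene-assigned reads at 5 mg/kg (lowest, median, highest) and 1.25%, 1.90% and 2.42% at 1 mg/kg. mt-Cytb, the only mitochondrially encoded subunit of complex III (chrM:14145-15288), took 0.293%, 0.522% and 0.663% at 5 mg/kg, against 0.283%, 0.417% and 0.563% at 1 mg/kg. For both genes the groups overlapped across most of their range, and the highest library was replicate 5 at 5 mg/kg. Of the complex I subunits, which carry out proton pumping in the membrane arm, mt-Nd1 (chrM:2751-3707) took 0.308%, 0.541% and 0.679% at 5 mg/kg, against 0.282%, 0.425% and 0.621% at 1 mg/kg. mt-Nd2 (chrM:3914-4951) took 0.315%, 0.502% and 0.613% at 5 mg/kg, against 0.261%, 0.434% and 0.605% at 1 mg/kg. mt-Nd5 (chrM:11742-13565) took 0.240%, 0.351% and 0.404% at 5 mg/kg, against 0.207%, 0.299% and 0.385% at 1 mg/kg. All 3 overlapped between the groups. mt-Nd4 (chrM:10167-11544) took 0.208%, 0.290% and 0.351% at 5 mg/kg, against 0.180%, 0.258% and 0.327% at 1 mg/kg. mt-Nd6, the minus-strand gene (chrM:13552-14070), was far lower, with 0.00941%, 0.0166% and 0.0209% at 5 mg/kg, against 0.00888%, 0.0147% and 0.0197% at 1 mg/kg. By mean CPM over the 12 libraries, 6 of the 10 highest genes of the whole table were mitochondrial, and mt-Nd6 ranked 321.

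Per kilobase of whole gene, the order of the mRNAs was much the same in both groups. The 6 low mRNAs add almost nothing to the sum used here, and their counts cannot be taken as their levels. The percents are therefore in effect shares among the 7 well-counted mRNAs, not of all 13. mt-Co1 made up 43.1% ± 1.74 of the summed mt-mRNA level at 5 mg/kg, against 43.4% ± 2.51 at 1 mg/kg (SD, n = 6 each). mt-Nd1 made up 16.5% ± 0.743 at 5 mg/kg, against 15.9% ± 1.08 at 1 mg/kg. Next, mt-Nd2 made up 13.99% ± 0.691 at 5 mg/kg, against 14.2% ± 1.04 at 1 mg/kg. mt-Cytb made up 13.3% ± 0.904 at 5 mg/kg, against 12.9% ± 0.911 at 1 mg/kg. The 2 genes did not differ beyond their spread, with mt-Nd2 the higher in 9 of 12 libraries. mt-Nd4 made up 6.36% ± 0.459 at 5 mg/kg, against 6.64% ± 0.609 at 1 mg/kg. mt-Nd5 made up 5.76% ± 0.489 at 5 mg/kg, against 5.93% ± 0.633 at 1 mg/kg. Here too the neighbours lay within their spread, and mt-Nd4 was the higher in 10 of 12 libraries. mt-Nd6 made up 0.924% ± 0.110 at 5 mg/kg, against 0.993% ± 0.112 at 1 mg/kg, and it was below mt-Nd5 in all 12 libraries. mt-Cytb, which lies next to it on the opposite strand with only mt-Te between them, stood 14.6 ± 1.40 times as high as mt-Nd6 per kilobase at 5 mg/kg, against 13.1 ± 1.15 times at 1 mg/kg. That ratio differed between the groups by 1.45, more than the SD of either, with overlapping groups and no test. No mean share of a single mRNA differed by more than the SD of either group.

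The order depended on the length by which reads were divided. All reads of a gene were kept each time, so these are not levels measured on the remaining bases alone. When only bases outside the copies of at least 99% identity were taken as length, 502 bases of mt-Nd4 and 1062 of mt-Co1 remained. That length was chosen after the values were seen. mt-Nd4 then made up 13.3% ± 0.877 at 5 mg/kg, against 13.9% ± 1.22 at 1 mg/kg, and held rank 2 in place of rank 5. mt-Co1 averaged 48.1% over the 12 libraries. With copies of at least 95% identity, no base of mt-Co1 remained, so that gene was left out despite its many reads. mt-Nd2, with 528 bases remaining, led the 6 mRNAs still ranked, at 31.3% ± 0.718 at 5 mg/kg, against 31.6% ± 1.76 at 1 mg/kg. The groups overlapped for every mRNA that could be ranked under each length tried.

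**Figure D3:**
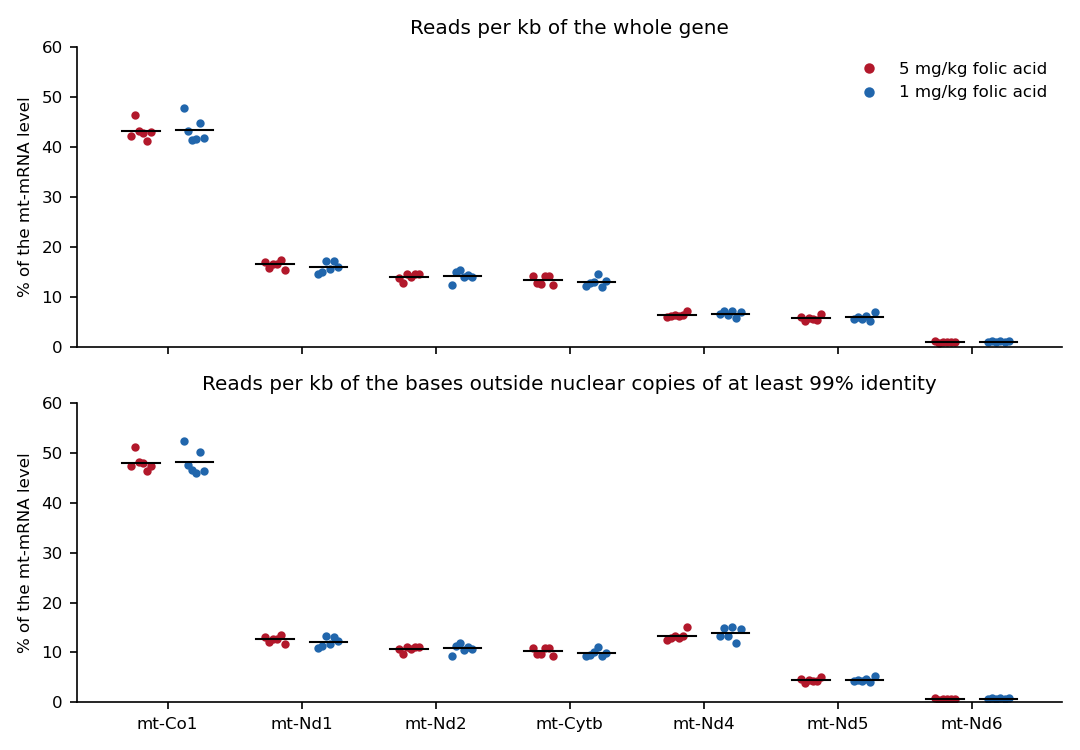
Percent of the summed mt-mRNA level per kilobase (vertical axis, from 0) for the 7 well-counted mRNAs, with the whole gene as length (top) or only its bases outside nuclear copies of at least 99% identity (bottom). All reads of a gene were kept in both panels. Points are libraries, 5 mg/kg left of 1 mg/kg for each gene, and lines are means of 6; mt-Co1 leads in both panels and mt-Nd4 changes place between them.

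Of the 22 tRNAs, 12 had 45 to 4198 reads in all 12 libraries together, and 10 had 0 to 2. These are whole tRNA genes of 59 to 75 bases, and the counts may hold precursor RNA as well as mature tRNA. The 10 low ones were mt-Tf, mt-Tv, mt-Tl1, mt-Td, mt-Tk, mt-Tg, mt-Tr, mt-Th, mt-Ts2 and mt-Tl2, and all are plus-strand genes. All but mt-Tv, with 2 reads, had 0 reads throughout, which allows a share of up to 4.15e-07% of the gene-assigned reads over the 12 libraries, counting 3 reads as the limit. All 8 minus-strand tRNAs had reads. Of the plus-strand tRNAs, mt-Ti, mt-Tm, mt-Tw and mt-Tt had reads. The genes with the most reads and those at 0 are shown by a pair each, with the anticodon in capitals, read from the strand of the gene in GRCm38: mt-Tw (tryptophan, chrM:4950-5016, plus), mt-Tq (glutamine, chrM:3772-3842, minus), mt-Tl1 (leucine, chrM:2676-2750, plus) and mt-Tk (lysine, chrM:7700-7764, plus).
mt-Tw: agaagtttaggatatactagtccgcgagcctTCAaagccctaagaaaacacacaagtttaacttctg
mt-Tq: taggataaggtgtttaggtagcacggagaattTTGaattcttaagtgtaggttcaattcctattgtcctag
mt-Tl1: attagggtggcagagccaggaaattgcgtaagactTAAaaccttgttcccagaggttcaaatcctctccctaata
mt-Tk: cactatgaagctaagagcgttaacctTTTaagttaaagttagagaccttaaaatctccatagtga

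The detected tRNAs differed widely in reads. mt-Tw, the tryptophan tRNA, had 447, 241, 377, 532, 529 and 132 reads in replicates 1 to 6 at 5 mg/kg, against 167, 277, 532, 385, 452 and 127 reads at 1 mg/kg. mt-Tq, the glutamine tRNA, had 248, 137, 293, 253, 248 and 190 reads at 5 mg/kg, against 119, 199, 266, 299, 224 and 187 reads at 1 mg/kg. In both groups the counts spread over a like range. mt-Tt, the threonine tRNA, had 134, 110, 116, 352, 279 and 42 reads at 5 mg/kg, against 90, 46, 127, 207, 217 and 41 reads at 1 mg/kg, so the 2 highest counts were at 5 mg/kg while the lowest of each group were alike. Among the other 3 of the 6 highest, the proline tRNA mt-Tp had 82 to 159 reads at 5 mg/kg, against 55 to 149 at 1 mg/kg. The isoleucine tRNA mt-Ti had 55 to 152 reads at 5 mg/kg, against 49 to 139 at 1 mg/kg, and the glutamate tRNA mt-Te had 19 to 29 at 5 mg/kg, against 7 to 31 at 1 mg/kg.

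The distance to neighbouring genes was looked at after the counts were seen. Outside the copied stretch, 6 tRNAs had under 10 reads in all. Of these, 5 have at most 1 free base between them and the next gene of their strand on either side. The sixth, mt-Tf, has 1 free base downstream and opens the annotated map beside the non-coding control region. Among the 12 tRNAs with more reads, mt-Tt and mt-Tp close the map on the other side of the control region, and the other 10 have between 32 and 6613 free bases on their freer side. When genes of both strands are counted as neighbours, the detected plus-strand tRNAs have at most 2 free bases. The kit keeps no record of strand, so the distances within a strand may not be those that bear on the counts. Inside the copied stretch, 4 of 5 tRNAs were at 0, and mt-Ts1, a minus-strand serine tRNA, had 1 to 7 reads per library. One of those at 0, mt-Td, has 69 free bases on its freer side when its own strand is counted. That is close to the 70 of mt-Ti, which had 1099 reads in all. Reads that overlapped several genes, which are given to none, made up 0.586% to 0.936% of the tallied reads. The annotation, read length and strand setting of the counting were not given in the sources used here. Their part in the tRNA counts and zeros, and that of neighbouring genes, was not tested, and a count of 0 does not show that a tRNA gene was not expressed.

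No mitochondrial gene was called between the doses. Of the 37 members, 18 passed the filter on low counts: both rRNAs, 8 mRNAs and 8 tRNAs. In edgeR's quasi-likelihood test with Benjamini-Hochberg adjustment over 18647 genes, 0 of the 18 were called, against a background of 0% of all tested genes. At an unadjusted p under 0.05, 0 of the 18 passed, against a background of 1.93% (359 genes, 249 higher and 110 lower at 5 mg/kg). DESeq2 called 0 of its 28 tested members and limma-voom 0 of 18, and both called 0 genes of the whole table, with 776 and 361 genes at an unadjusted p under 0.05. All 18 fitted fold changes were above 0, against a background of 47.2% of tested genes. Members share precursor RNAs and libraries, so they are not independent of each other. Every 95% interval spanned 0.

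Among the rRNAs, the log2 fold change (5 mg/kg over 1 mg/kg) was 0.31 ± 0.46 for mt-Rnr2 and 0.27 ± 0.37 for mt-Rnr1 (SE). mt-Cytb of complex III had 0.44 ± 0.44 and mt-Co1 of complex IV 0.36 ± 0.41. In complex I the values were 0.43 ± 0.44 for mt-Nd1, 0.33 ± 0.38 for mt-Nd5, 0.33 ± 0.43 for mt-Nd2, 0.30 ± 0.38 for mt-Nd4, 0.29 ± 0.40 for mt-Nd6 and 0.22 ± 0.38 for mt-Nd3. mt-Nd3 rests on the small counts given above. Neither ATP synthase gene passed the filter on low counts. The tRNAs ran widest, at 0.81 ± 0.59 for mt-Tt, 0.77 ± 0.59 for mt-Tm, 0.40 ± 0.48 for mt-Tw, 0.29 ± 0.42 for mt-Ti and 0.23 ± 0.30 for mt-Tq, and at 0.19 ± 0.39 for mt-Te, 0.16 ± 0.30 for mt-Tp and 0.11 ± 0.31 for mt-Ty. The smallest adjusted p among the members, which was also that of all tested genes in edgeR, was 0.943. An interval such as that of mt-Co1, -0.54 to 1.26, leaves room for a lower as well as a higher level at 5 mg/kg.

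The class medians of these log2 fold changes were 0.33 for the mRNAs, 0.29 for the rRNAs and 0.26 for the tRNAs, against -0.018 for all 18647 tested genes. They rested on few libraries. Without replicate 5 at 5 mg/kg the medians of the mRNAs and rRNAs were 0.078 and 0.054, and without replicate 3 at 1 mg/kg they were 0.54 and 0.41. The tRNA median was 0.13 without replicate 1 at 1 mg/kg and 0.50 without replicate 3 at 1 mg/kg. Without the 3 libraries with the most reads outside genes, a step added after the data were seen, the medians were 0.12 for mRNAs, 0.15 for rRNAs and 0.064 for tRNAs. When libraries were scaled by their total alone, the median of all genes moved to -0.16, and the class medians were 0.15 for mRNAs, 0.079 for rRNAs and 0.094 for tRNAs. Measured against the median of all genes, the mRNAs then stood 0.31 higher, and 0.35 higher with TMM scaling.

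**Figure D4:**
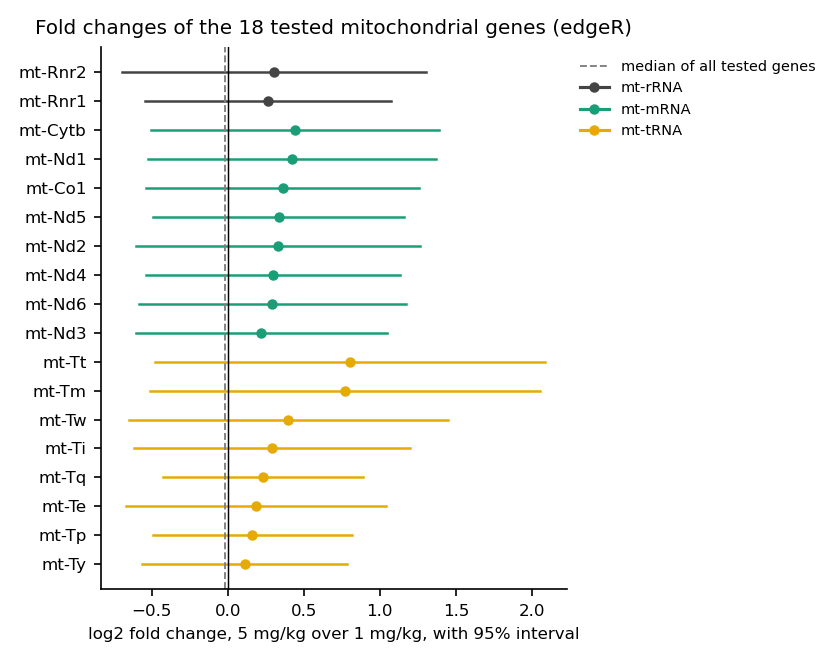
Log2 fold change of 5 mg/kg over 1 mg/kg (horizontal axis) for the 18 tested mitochondrial genes, with 95% intervals derived from the edgeR test, by class and ordered by size within it. All points lie between 0.11 and 0.81 and every interval spans 0; the dashed line marks the median of all tested genes, -0.018.

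The spread within each group was large. Over the libraries of 1 dose, the coefficient of variation of CPM for the 7 well-counted mRNAs was 47.9% to 56.5% at 5 mg/kg, against 43.1% to 51.4% at 1 mg/kg. The median over all tested genes was 25.6% at 5 mg/kg, against 30.9% at 1 mg/kg. For mt-Rnr1 it was 42.4% at 5 mg/kg, against 26.6% at 1 mg/kg, and for mt-Rnr2 45.7% at 5 mg/kg, against 33.7% at 1 mg/kg. In CPM, mt-Co1 was 4.59 times as high in the highest library as in the lowest of the 12, mt-Nd1 5.36 times and mt-Rnr2 3.40 times. CPM values here are scaled with TMM factors, so they are not shares of the library. As shares of gene-assigned reads the same folds were 2.07 for mt-Co1, 2.41 for mt-Nd1 and 1.53 for mt-Rnr2.

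The libraries that were low in mt-mRNA were the same 3 that had the most reads outside genes. Replicate 6 at 5 mg/kg had an mt-mRNA share of 2.77%, and replicates 1 and 6 at 1 mg/kg had 2.71% and 2.57%, below the 3.35% to 5.32% of the other 9 libraries. For 5 of the 7 well-counted mRNAs, taken one by one, these were also the 3 lowest libraries. For 6 of the 7, the highest library was replicate 5 at 5 mg/kg, which had the fewest reads outside genes, 5.58%. Without these 3 libraries the mt-mRNA share was 0.235 percentage points higher at 5 mg/kg than at 1 mg/kg, against 0.487 with all 12. Leaving out single libraries moved it as far, to 0.257 without replicate 6 at 1 mg/kg and 0.772 without replicate 6 at 5 mg/kg. The rRNA difference was 3.18 points with all 12, 1.15 without replicate 5 at 5 mg/kg and 4.66 without replicate 6 at 5 mg/kg. The part of reads outside genes in these differences was not tested.

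Markers of tissues rich in mitochondria varied beside the members. All 13 skeletal muscle markers were tested, and their summed CPM ran from 17763 to 54000 at 5 mg/kg and from 18186 to 85113 at 1 mg/kg. Their mean log2 CPM was 10.35 ± 0.58 at 5 mg/kg, against 10.25 ± 1.02 at 1 mg/kg (SD, n = 6 each). All 10 brown fat markers were tested too, at a summed CPM of 48.9 to 1603 at 5 mg/kg, against 65.1 to 844 at 1 mg/kg. Their mean log2 CPM was 3.50 ± 1.84 at 5 mg/kg, against 2.26 ± 0.97 at 1 mg/kg, so the brown fat list, like the members, was higher on average at 5 mg/kg with overlapping groups. The brown fat list was lowest in replicate 6 at 5 mg/kg, at 0.36, then in replicates 6 and 1 at 1 mg/kg, at 1.23 and 1.65, the same 3 libraries as for mt-mRNA. It was highest in replicate 5 at 5 mg/kg, at 5.31. The brown fat list was Ucp1, Cidea, Zic1, Kng2, Acot11, Cox7a1, Cox8b, Cpt1b, Elovl3 and Ppara. Of these, Cox7a1 and Cox8b encode subunits of complex IV, so the list is not a measure of brown fat alone. Muscle markers were highest in replicate 3 at 1 mg/kg, at 11.69, which had the second highest mt-mRNA share, 4.94%. They were lowest in replicates 6 and 1 at 1 mg/kg, at 9.04 and 9.31, against 10.03 in replicate 6 at 5 mg/kg. Those replicates at 1 mg/kg were also lowest in the adipocyte list, at 7.63 and 8.16, and highest in the B cell list, at 6.40 and 6.38. In replicate 6 at 5 mg/kg the adipocyte and B cell lists were at 9.10 and -1.07. No muscle or brown fat marker was at 0 throughout. With the muscle level as a covariate, the class medians of the log2 fold changes were 0.23 for mRNAs, 0.18 for rRNAs and 0.22 for tRNAs. The part of brown fat, adipocytes or B cells in the members' levels was not tested.

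**Figure D5:**
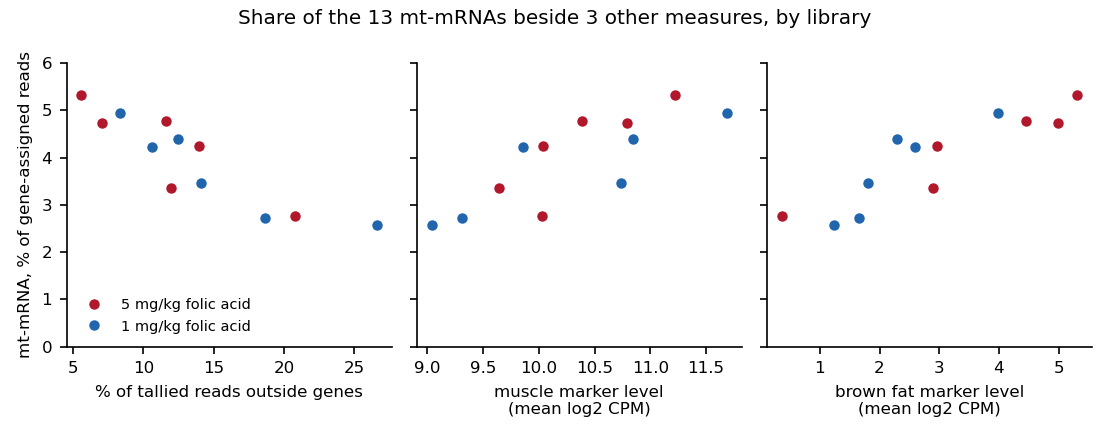
Share of gene-assigned reads taken by the 13 mt-mRNAs (%, vertical axis) beside the percent of tallied reads outside genes, the muscle marker level and the brown fat marker level (mean log2 CPM), with 1 point per library. The 3 libraries below 2.8% are those with the most reads outside genes and the lowest brown fat level, and the highest library, at 5.32%, has the fewest reads outside genes and the highest brown fat level.

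The proteins that act on mitochondrial RNA are encoded in the nucleus, and none of their genes was called between the doses. Of 206 tested members of 8 lists, 0 had an adjusted p under 0.05 in edgeR, and 1 had an unadjusted p under 0.05, or 0.485%, below the background of 1.93% of all tested genes. That gene was Vars2, the enzyme that loads valine on its mitochondrial tRNA, with 10.9 ± 1.10 CPM at 5 mg/kg, against 9.22 ± 0.833 CPM at 1 mg/kg (SD, n = 6 each), with a log2 fold change of 0.25 ± 0.10 and an adjusted p of 0.943. Of 19 tested mitochondrial aminoacyl-tRNA synthetases, 15 had values above 0 and 4 below, with a median log2 fold change of 0.12. When libraries were scaled by their total alone it was -0.069, against -0.16 for all tested genes. Aars2, the alanine enzyme, had 0.35 ± 0.18. Lars2, the leucine enzyme, had 311 to 684 reads at 5 mg/kg, against 308 to 744 at 1 mg/kg. Gm15564, annotated as an antisense RNA gene, had 3 to 10 reads at 5 mg/kg, against 3 to 6 at 1 mg/kg. No transcript of either gene matched a mitochondrial gene over 100 or more bases at 90% or more identity.

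Transcription and replication genes had a median of 0.029 over 17 tested, 10 above 0 and 7 below, and -0.14 under scaling by total alone. Under that scaling the median of all tested genes was -0.16, below that of each list in this paragraph. Polrmt, the mitochondrial RNA polymerase, had 13.2 ± 2.36 CPM at 5 mg/kg, against 11.6 ± 1.21 CPM at 1 mg/kg, with a log2 fold change of 0.18 ± 0.13. Polg, the catalytic subunit of the mitochondrial DNA polymerase, had 26.8 ± 1.61 CPM at 5 mg/kg, against 26.2 ± 3.38 CPM at 1 mg/kg, with a log2 fold change of 0.029 ± 0.098. RNA processing and turnover genes had a median of 0.17 over 19 tested, 18 above 0 and 1 below, and -0.00026 under scaling by total alone. Lrpprc, which stabilises mitochondrial mRNAs, had 0.22 ± 0.21, and Supv3l1, the helicase of mitochondrial RNA decay, 0.26 ± 0.16. Genes that modify mitochondrial rRNA had a median of 0.073, and those that modify or formylate tRNAs 0.014, and under scaling by total alone the medians were -0.095 and -0.14. Among the first, Mrm1, an rRNA methyltransferase, had 0.22 ± 0.15, and among the second Mto1, which modifies the wobble base of mitochondrial tRNAs, had 0.26 ± 0.20. The genes with the highest CPM of these lists, Dhx30 and Nsun2, had 0.017 ± 0.11 and -0.093 ± 0.11.

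The partners in the finished complexes stood further from the median of all genes. Of 77 tested protein genes of the mitochondrial ribosome, 75 had values above 0, with a median log2 fold change of 0.24. Mrpl42 had 44.5 ± 18.9 CPM at 5 mg/kg, against 37.1 ± 16.5 CPM at 1 mg/kg, with a log2 fold change of 0.26 ± 0.33. All 38 tested nuclear genes of oxidative phosphorylation had values above 0, with a median of 0.48 (0.27 under scaling by total alone). The mean log2 CPM of this list was highest in replicates 5 and 4 at 5 mg/kg, at 7.44 and 7.17. It was lowest in replicate 6 at 1 mg/kg (5.18), replicate 6 at 5 mg/kg (5.57) and replicate 1 at 1 mg/kg (5.75). Genes of a list share libraries, so they are not independent of each other. Atp5b, the catalytic subunit of ATP synthase, had 889 ± 422 CPM at 5 mg/kg, against 639.8 ± 236 CPM at 1 mg/kg, with a log2 fold change of 0.47 ± 0.35, and Cox6a1, a subunit of complex IV, had 0.75 ± 0.37. The background for a value above 0 was 47.2% of tested genes, and these lists were chosen with earlier results of these data known. Regulators of mitochondrial biogenesis had a median of -0.10 over 8 tested, 3 above 0 and 5 below. Esrra, a nuclear receptor that drives many of these genes, had 0.52 ± 0.26, and Ppargc1b, its coactivator, 0.46 ± 0.24. Gabpa, the highest of this list in CPM, had 0.0045 ± 0.10. The 3 genes named are those above 0, and the lowest of the 5 below was at -0.33. The adjusted p of Esrra and Ppargc1b in edgeR was 0.943 each, and that of Polg was 0.961.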

How the data were processed

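For every library the authors deposited a file of whole-number read counts by gene, unnormalized as its values show. The submitters' processing notes name STAR, HTSeq 0.6.1 and the mm10 build. STAR's version, the annotation, read length and strand setting were not given in the sources used here. Of 55487 Ensembl IDs, 55141 matched GENCODE vM21 (GRCm38), which also supplied coordinates and transcript sequences. HTSeq's lines for unassigned reads (16.7% to 35.7% of tallied reads) stayed out of library sizes and tests. Replicates were numbered in record order, which pairs nothing.

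The doses were compared with edgeR 4.0.16 (R 4.3.3), using filterByExpr, TMM scaling and the robust quasi-likelihood F-test over all 12 libraries, with Benjamini-Hochberg adjustment over 18647 genes and 0.05 as threshold. DESeq2 1.42.0 and limma-voom 3.58.1 were alternatives. Shares of reads, summed levels and levels per kilobase got no test. Copies were searched with blastn 2.17.0 among annotated transcripts, since no genome sequence was used here. In pairs of libraries of a group, the lowest chi-square per degree of freedom over 30 pairs was 41.7, so none repeats the counts of another in its group. Pairs across the doses were not compared, and the value does not show that libraries came from separate animals.

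The members and gene lists were chosen with earlier results of these data known. Named genes were all mt-mRNAs and mt-rRNAs, the 6 mt-tRNAs with the highest and the 3 with the lowest share (9 tied at 0 reads, all named). Nuclear copies averaging at least 1 CPM, Lars2 and Gm15564 were named too. From each nuclear list, some but not all of the 2 with the smallest p and the one with the highest CPM are given. Sequences of other members were added where they show a shared end or copy. Alternatives changed the scaling, filter, test, covariate, denominator, length and libraries.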

Additional observations from a re-analysis of the deposited data

Results flagged for a closer look

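In 62 groups of values (shares, levels and ratios of 6 libraries each), 1 value lay far from the rest of its group. The share of mt-Nd4 in the summed mt-mRNA level per kilobase was 7.24% in replicate 6 at 5 mg/kg, above the 5.93% to 6.36% of the other 5 libraries at that dose. Its gap to the nearest library was 0.676 of the group's range, past the 95% critical ratio of Dixon's test for 6 values. The 6 libraries at 1 mg/kg ran from 5.66% to 7.24%. Chance gives about 1 such value in 20 groups.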

How the results depend on the processing

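No member was called under any of the 20 other settings, and 9 of 360 fitted fold changes of the tested members turned below 0. For mt-Ty the log2 fold change was -0.020 with scaling by total alone and -0.10 without the 3 libraries with the most reads outside genes, and -0.031 to 0.23 when 1 library was left out. Without those 3 libraries mt-Nd3 had -0.0017, mt-Te -0.026 and mt-Tp -0.060. Leaving out 1 library gave -0.020 to 0.36 for mt-Te and -0.0015 to 0.33 for mt-Tp. The values below 0 came without replicate 1 at 1 mg/kg and, for mt-Ty, also without replicate 5 at 1 mg/kg. The cause was not tested. As a percent of nuclear gene reads in place of gene-assigned reads, the difference between the doses (5 mg/kg minus 1 mg/kg) was 17.2 points for the rRNAs, 1.91 for the mRNAs, 0.000817 for the tRNAs and 19.2 for all 37, because the denominator no longer holds the members. The share of mt-Co1 in the mt-mRNA level was 48.1% with only bases outside copies of 99% identity as length. It was 50.6% with no length correction, and both lengths differ from the whole gene. With scaling by total alone, the list medians were -0.14 for transcription and replication, -0.095 for rRNA modification, -0.14 for tRNA modification and -0.069 for aminoacyl-tRNA synthetases, against medians above 0 with TMM scaling, while the median of all genes moved to -0.16. The median of RNA processing was then -0.00026, and that of tRNA modification was also below 0, at -0.020, with the muscle level as covariate. The share differences when 1 library was left out ran from 1.15 to 4.66 points for the rRNAs, 0.257 to 0.772 for the mRNAs, 0.000108 to 0.000349 for the tRNAs and 1.41 to 5.43 for all 37. Without the filter, and in DESeq2, 28 members were tested, and the other 9 had 0 reads. No paired analysis was possible because replicates were numbered in record order, which ties no sample of 1 dose to a sample of the other.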
